A study of Mus musculus with 8 samples.

Results

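Liver sinusoidal endothelial cells line the capillaries of the liver, and 9 genes listed as their markers are described here: Stab1, Stab2, Lyve1, Clec4g, Pecam1, Kdr, Fcgr2b, Mrc1 and Dnase1l3. They were taken from a list of names and not from their values, out of 34547 genes with an entry in the files. All 9 were among the 13678 genes with enough reads to be tested. The RNA came from whole livers of C57BL/6J mice, 4 given an adeno-associated virus with mouse Nudt7 and 4 given the virus with GFP, a fluorescent protein that served as the control. Nudt7 encodes a peroxisomal hydrolase of coenzyme A and acyl-CoAs. Every mouse had 2.5e+11 viral particles by tail vein in 150 µl of buffered saline at 8 weeks of age. Every liver was taken 3 to 4 weeks after that, at 11 to 12 weeks of age, from a mouse fasted for 24 h. So both groups had received a virus and a foreign or added gene, and both had fasted. The sources used here give neither the promoter nor the serotype of the virus, and no value here shows which liver cells took it up.

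Sinusoidal endothelial cells have open pores and no continuous basement membrane, so that plasma reaches the hepatocytes. They take up waste macromolecules from blood, among them hyaluronan, modified lipoproteins, denatured collagen and small immune complexes, through scavenger, mannose and Fc receptors on their surface. Signals of vascular endothelial growth factor (VEGF) maintain this state, and the cells in turn send angiocrine factors to the hepatocytes. Of the 9 genes, Stab1, Mrc1 and Fcgr2b are also used by macrophages, Lyve1 also by lymphatic vessels, and Pecam1 and Kdr by endothelium in general.

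Depth was 11187806 to 15487092 estimated reads for the Nudt7 libraries and 11466892 to 23640734 for the GFP libraries. The marker with the fewest reads in a library, Clec4g in Nudt7 replicate 2, had 282 estimated reads there. Nudt7 itself stood at 1301, 1599, 3569 and 1555 CPM (reads scaled to 1e+06 per library, with TMM factors) in Nudt7 livers, against 60.7, 75.9, 79.9 and 72.9 CPM in GFP livers. Every library matched its label in that gene. Nudt7 replicate 3 stood apart from the other 7 libraries, at 68.1 on the first principal component of all tested genes against −21.4 to 3.69. In that library the tertile of tested genes with the shortest transcripts had a median deviation of 0.39 log2 units from the mean over livers, and the tertile with the longest had −0.33. Its summed red blood cell genes were also high, at 1813 CPM against 303 to 642 CPM in the other libraries. The mean transcript length of the markers ran from 1238 bases for Clec4g to 7480 bases for Stab2, so the fold changes below are also given without that library, or with the length trend removed, where that moves them.

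None of the 9 sinusoidal markers passed the comparison of Nudt7 with GFP livers in edgeR's quasi-likelihood test with Benjamini-Hochberg adjustment over all genes. The scavenger receptor gene Stab1 and the hyaluronan receptor gene Lyve1 had the lowest values relative to GFP livers, at −0.32 (SE 0.11) for Stab1 and −0.43 (SE 0.18) for Lyve1 as log2 fold changes. The other 7 lay between −0.19 and 0.15. The test called 0.117% of all genes tested, 10 lower and 6 higher in Nudt7 livers, and a count of 0 of 9 is close to that share. The count of markers was also 0 with DESeq2, which called 1.18% of all genes, with limma-voom and sample weights (0.753%), with limma on log2(TPM + 0.1) (0.0585%) and with edgeR without Nudt7 replicate 3 (0.0933%). At an unadjusted p under 0.05 the count was 2 of 9, Stab1 and Lyve1, both lower, beside 8.28% of all genes in either direction and 4.03% lower. That count was 0 without GFP replicate 4. It was 1 with the length trend removed, without Nudt7 replicate 1 or without GFP replicate 2, and 2 under the other alternatives. Negative fold changes were found for 7 of 9 markers and for 50.2% of all genes. The median log2 fold change of the 9 was −0.11, against −0.00 over all genes tested, and −0.06 without Nudt7 replicate 3. In whole-liver RNA, fewer cells of a type and less RNA per cell cannot be told apart.

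**Figure D1:**
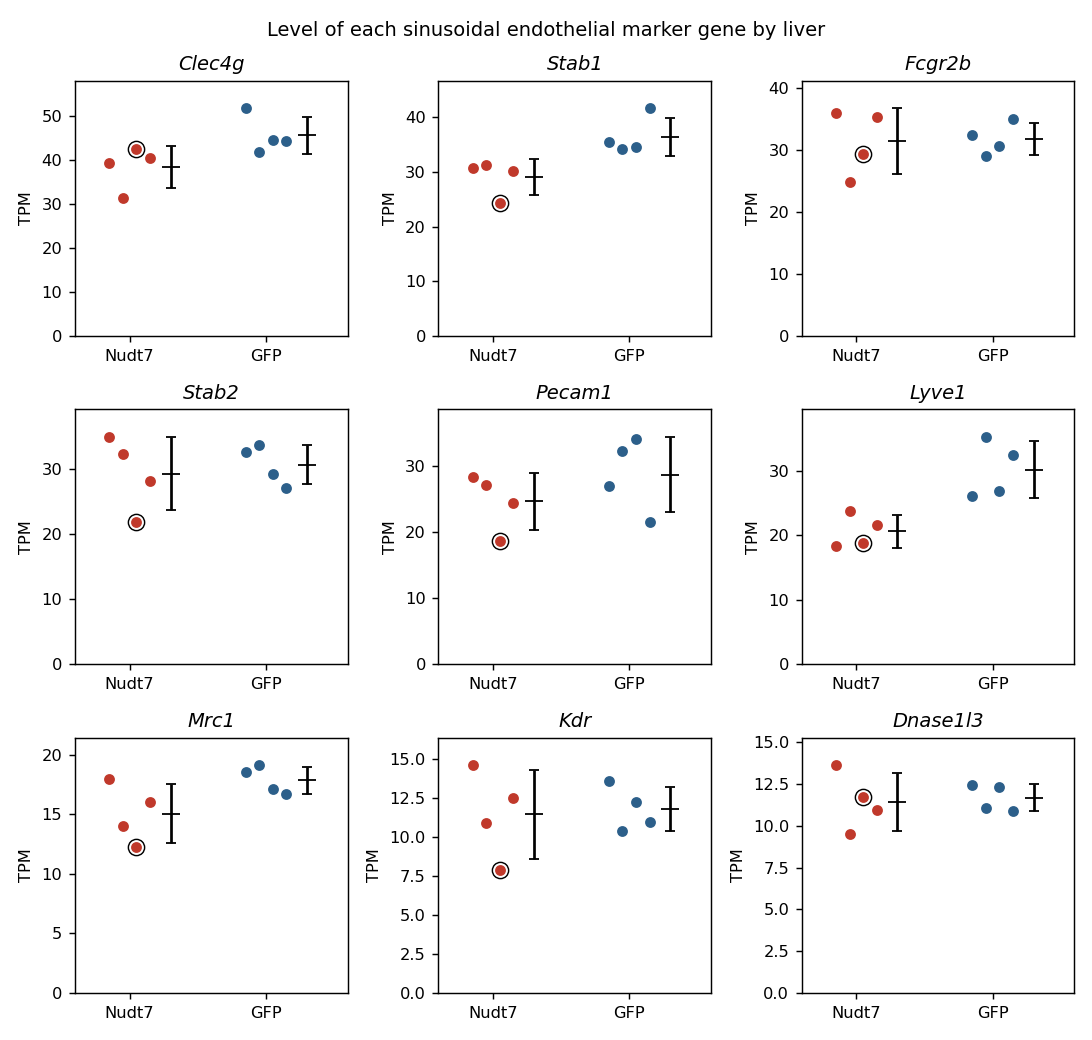
Level of each sinusoidal endothelial marker gene in TPM (a level per transcript length, summing to 1e+06 per library) in the 4 Nudt7 livers (red, left) and the 4 GFP livers (blue, right), with the mean and SD beside the points. A ring marks Nudt7 replicate 3; Lyve1 and Stab1 are the panels in which the groups do not overlap.

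The clearing receptors come first. Stab1 encodes stabilin-1, a scavenger receptor (chr14:31139013-31168641, minus strand, GRCm38). It stood at 103, 97.6, 91.0 and 91.0 CPM in Nudt7 livers, against 116, 116, 112 and 132 CPM in GFP livers. All 4 Nudt7 livers lay below all 4 GFP livers. Such a separation in that direction was found for 3% of all genes tested and for 1 of the 9 markers. The group means were 95.6 ± 5.73 CPM (Nudt7) and 119 ± 8.86 CPM (GFP; SD over 4 livers each), and the log2 fold change of −0.32 had a 95% interval of −0.56 to −0.07 (edgeR, unadjusted p = 0.0164, adjusted p = 0.470). With the length trend removed it was −0.19 (edgeR, adjusted p = 0.674), and without Nudt7 replicate 3 it was −0.28. The groups overlapped with the trend removed. Nudt7 replicate 3 then stood 0.22 log2 units above the mean over livers, higher than GFP replicates 1, 2 and 3 (0.01, 0.04 and −0.02).

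Stab2 encodes stabilin-2, the related receptor that clears hyaluronan from blood (chr10:86841198-87008025, minus strand). It stood at 108, 92.6, 78.9 and 103 CPM in Nudt7 livers, against 105, 97.8, 103 and 107 CPM in GFP livers. The groups overlapped, and Nudt7 replicate 3, the library with low counts of long genes, held the lowest value. The log2 fold change was −0.11 (SE 0.13, 95% interval −0.38 to 0.16, adjusted p = 0.812, edgeR), −0.02 without that library, and 0.015 with the length trend removed. The ratio of Stab1 to Stab2 reads was 0.952, 1.05, 1.15 and 0.887 in Nudt7 livers, against 1.11, 1.19, 1.09 and 1.24 in GFP livers, with overlapping ranges.

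Lyve1 encodes a hyaluronan receptor of lymphatic and sinusoidal endothelium (chr7:110850607-110863239, minus strand). It stood at 32.3, 48.6, 47.0 and 46.7 CPM in Nudt7 livers, against 44.5, 68.2, 52.2 and 69.4 CPM in GFP livers. GFP replicate 1 lay below 3 of the 4 Nudt7 livers, so the groups overlapped on this scale. The log2 fold change was −0.43 (SE 0.18, 95% interval −0.81 to −0.04, unadjusted p = 0.0333, adjusted p = 0.565, edgeR). It was −0.42 with the length trend removed and −0.45 without Nudt7 replicate 3.

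In TPM, where the authors' program divided by the effective length in each library, Lyve1 stood at 18.4, 23.7, 18.8 and 21.5 in Nudt7 livers, against 26.1, 35.3, 26.8 and 32.4 in GFP livers. On that scale the groups did not overlap, as was also the case for Stab1. A separation with Nudt7 livers lower was found for 2 of 9 markers and for 4.36% of all genes tested. limma on log2(TPM + 0.1) gave −0.54 for Lyve1 (SE 0.15, unadjusted p = 0.00370, adjusted p = 0.342). All genes tested had a median of −0.12 on the TPM scale and 68.7% of them were negative, as were 9 of 9 markers, whose median was −0.21.

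Mrc1 encodes the mannose receptor, which takes up glycoproteins and collagen fragments (chr2:14229392-14332057, plus strand). It stood at 61.9, 46.3, 47.3 and 54.5 CPM in Nudt7 livers, against 64.1, 63.2, 55.0 and 57.6 CPM in GFP livers. Nudt7 replicates 2, 3 and 4 lay below every GFP liver, and Nudt7 replicate 1 lay among them. For Mrc1 the log2 fold change was −0.19 (SE 0.13, 95% interval −0.47 to 0.08, adjusted p = 0.694, edgeR), −0.13 without Nudt7 replicate 3, and −0.10 with the length trend removed.

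Fcgr2b encodes the inhibitory IgG receptor, with which these cells remove small immune complexes (chr1:170958617-170976547, minus strand). It stood at 48.4, 33.4, 45.6 and 46.3 CPM in Nudt7 livers, against 45.3, 40.0, 41.7 and 47.3 CPM in GFP livers. Nudt7 replicate 2 was lowest of the 8 and the other 7 were intermixed. The log2 fold change was −0.00 (SE 0.13, 95% interval −0.30 to 0.29, adjusted p = 0.996, edgeR).

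Clec4g encodes LSECtin, a C-type lectin of sinusoidal endothelium that binds glycans (chr8:3707064-3720651, minus strand). It stood at 30.2, 24.9, 46.5 and 32.8 CPM in Nudt7 livers, against 39.4, 31.4, 32.1 and 37.1 CPM in GFP livers. Nudt7 livers held both the lowest and the highest value, the highest in Nudt7 replicate 3, the library with high counts of short genes. For Clec4g the log2 fold change was −0.06 (SE 0.18, 95% interval −0.45 to 0.33, adjusted p = 0.94, edgeR). It was −0.24 without Nudt7 replicate 3, −0.22 with the length trend removed, and 0.06 without Nudt7 replicate 2.

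Pecam1 and Kdr mark endothelium in general. Pecam1 encodes an adhesion protein of endothelial junctions (chr11:106654217-106750628, minus strand) and stood at 54.1, 52.1, 47.0 and 48.9 CPM in Nudt7 livers, against 50.8, 59.8, 60.6 and 47.0 CPM in GFP livers. Both groups reached down to 47.0 CPM and the highest values were those of GFP replicates 2 and 3. The log2 fold change was −0.11 (SE 0.12, 95% interval −0.37 to 0.15, adjusted p = 0.804, edgeR). It was −0.06 without Nudt7 replicate 3. Kdr encodes VEGF receptor 2, through which VEGF signals in these cells (chr5:75932827-75978458, minus strand). It stood at 62.7, 47.7, 46.9 and 56.2 CPM in Nudt7 livers, against 57.4, 43.4, 49.4 and 51.9 CPM in GFP livers. The groups were intermixed, and the log2 fold change was 0.08 (SE 0.13, 95% interval −0.21 to 0.37, adjusted p = 0.876, edgeR). It was 0.15 without Nudt7 replicate 3 and 0.18 with the length trend removed.

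Dnase1l3 encodes a secreted nuclease that digests DNA in chromatin (chr14:7964533-7994573, minus strand). It stood at 42.6, 31.2, 49.9 and 38.6 CPM in Nudt7 livers, against 38.4, 33.9, 35.8 and 37.9 CPM in GFP livers. The Nudt7 livers again held the lowest value, in replicate 2, and the highest, in replicate 3. For Dnase1l3 the log2 fold change was 0.15 (SE 0.14, 95% interval −0.16 to 0.46, adjusted p = 0.774, edgeR), and 0.05 without Nudt7 replicate 3. With the length trend removed it was 0.25.

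**Figure D2:**
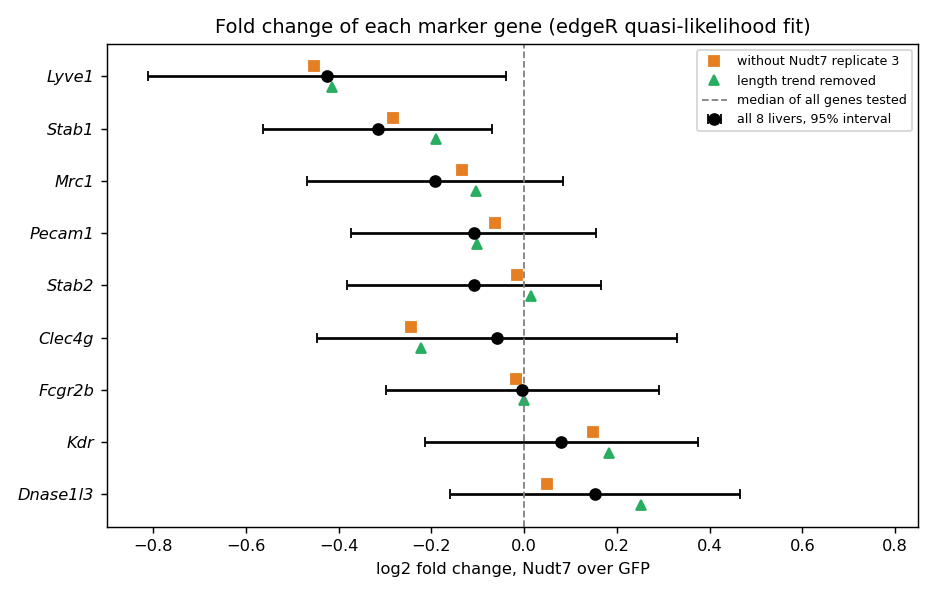
Log2 fold change of each marker gene, Nudt7 over GFP, from edgeR (black points, with 95% intervals), with the value without Nudt7 replicate 3 (orange squares), the value with the length trend removed (green triangles) and the median of all genes tested (dashed line). Lyve1 at −0.43 and Stab1 at −0.32 are the markers whose interval lies below 0, and the 3 settings lie closest together for Lyve1 and Fcgr2b.

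Levels per transcript length allow the genes to be set side by side. Over the 8 livers Clec4g had the highest mean level, at 42.0 ± 5.71 TPM (SD), followed by Stab1 at 32.8, Fcgr2b at 31.6, Stab2 at 30.0, Pecam1 at 26.7 and Lyve1 at 25.4 TPM. Mrc1 followed at 16.5 TPM, and Kdr and Dnase1l3 stood last, both at 11.6 TPM. Every pair of neighbours in this order had overlapping ranges over livers. Within single livers, Clec4g lay above Stab1 in 8 of 8, Lyve1 above Mrc1 in 8 of 8 and Mrc1 above Kdr in 8 of 8. For Stab1 over Fcgr2b, Fcgr2b over Stab2, Pecam1 over Lyve1 and Kdr over Dnase1l3 the count was 5 of 8, and for Stab2 over Pecam1 it was 7 of 8. The markers also differed in how much they varied over the 8 livers in CPM, with a coefficient of variation from 9.71% for Stab2 to 24.1% for Lyve1.

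The order depended on which transcripts were summed. For Stab1, the long protein-coding transcript of 7999 bases held 76.5 ± 3.12% of the gene's reads in the Nudt7 group and 78.4 ± 3.97% in the GFP group (SD over 4 livers each). Short transcripts annotated as retained introns held most of the rest, and a read on a short transcript adds more to a TPM sum. Over protein-coding transcripts alone the mean level was 14.6 TPM for Stab1, 13.0 for Stab2, 10.4 for Pecam1, 24.8 for Fcgr2b and 13.8 for Mrc1, whereas Clec4g kept 40.9 and Lyve1 24.0 TPM. Clec4g, Lyve1, Kdr and Dnase1l3 had at least 94.5% of their reads on 1 protein-coding transcript in every library.

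Pecam1 had the largest such share outside its coding forms. A transcript annotated as a retained intron is a single exon of 2142 bases (chr11:106661185-106663326) and contains 1 exon of 23 bases of a protein-coding Pecam1 transcript. It was assigned 47.9%, 49.5%, 50.9% and 52.3% of the gene's reads in Nudt7 livers, against 47.3%, 50.8%, 53.3% and 36.8% in GFP livers. The share was near 50% in 7 of 8 livers, with GFP replicate 4, the most deeply sequenced library, below the rest. The groups overlapped (exact permutation test, two-sided, p = 0.6).

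Fcgr2b was split over forms that differ in their cytoplasmic tail. Fcgr2b-201 has a coding exon of 141 bases that Fcgr2b-202 lacks, and their coding lengths are 1020 and 879 bases. In mice, the form with this exon is known from B cells and is taken up poorly, and the form without it is the one that internalises bound complexes. The exon is printed because it is the coding difference between them, in capitals with 12 bases of the neighbouring exons in lower case (chr1:170963325-170963465, GRCm38, minus strand, read 5′ to 3′ from the GENCODE M21 transcript).
Fcgr2b-201 exon: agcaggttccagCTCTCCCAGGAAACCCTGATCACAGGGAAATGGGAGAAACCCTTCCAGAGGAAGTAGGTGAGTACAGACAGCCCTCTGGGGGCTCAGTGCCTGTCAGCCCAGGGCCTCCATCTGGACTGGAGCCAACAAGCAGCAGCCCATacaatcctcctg

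Of the reads assigned to Fcgr2b-201, Fcgr2b-202 and Fcgr2b-204, the form without the exon took 35.0%, 38.4%, 55.8% and 34.0% in Nudt7 livers, against 28.7%, 30.7%, 27.6% and 41.6% in GFP livers. The highest share was that of Nudt7 replicate 3, and GFP replicate 4 lay above 3 of the 4 Nudt7 livers. The means of 40.8 ± 10.2% (Nudt7) and 32.1 ± 6.40% (GFP; SD over 4 livers each) differed by 8.66 percentage points, and the groups overlapped (exact permutation test, two-sided, p = 0.2). Without Nudt7 replicate 3, an alternative chosen after seeing the data, the Nudt7 mean was 35.8% and the difference 3.66 points. The last exon is 2484 bases in Fcgr2b-201 and 543 bases in Fcgr2b-202, so the assigned shares also rest on how reads cover the 3′ end, and reads over the exon alone were not analysed here.

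A Stab2 transcript of 3504 bases, annotated as a target of nonsense-mediated decay, took 1.91%, 10.6%, 18.4% and 6.86% of Stab2 reads in Nudt7 livers, against 1.13%, 2.77%, 5.50% and 8.26% in GFP livers. The groups overlapped and Nudt7 replicate 3 was again highest (exact permutation test, two-sided, p = 0.257). The means were 9.45% (Nudt7) and 4.42% (GFP), a difference of 5.04 percentage points, which was 2.05 points without Nudt7 replicate 3. For the share of the long Stab1 transcript the exact permutation test gave p = 0.457 (two-sided). These 4 shares were chosen after their values were seen, the smallest p that 4 livers against 4 allow is 0.0286, and the p adjusted over the 4 exact permutation tests was 0.514 or more.

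**Figure D3:**
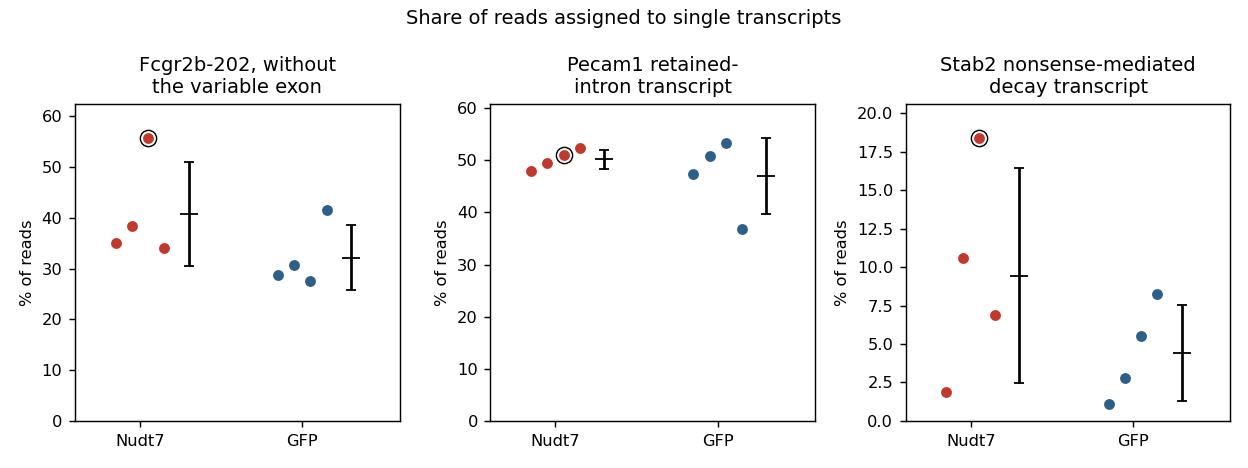
Share of reads assigned to single transcripts in Nudt7 livers (red, left) and GFP livers (blue, right), in percent, with mean and SD: Fcgr2b-202 among the reads of Fcgr2b-201, Fcgr2b-202 and Fcgr2b-204, the retained-intron transcript among Pecam1 reads, and the nonsense-mediated decay transcript among Stab2 reads. The ringed Nudt7 replicate 3 holds the highest share of Fcgr2b-202, 55.8%, and of the Stab2 decay transcript, 18.4%.

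Taken liver by liver in CPM, the 9 markers did not shift as a block. Their summed level was 543, 474, 500.2 and 518 CPM in Nudt7 livers, against 560.4, 554, 542 and 587 CPM in GFP livers. Nudt7 replicate 1 lay just above GFP replicate 3, and the other 3 Nudt7 livers lay below every GFP liver. The group means were 509 ± 29.1 CPM (Nudt7) and 561 ± 19.1 CPM (GFP; SD over 4 livers each). In TPM the sum was 234, 205, 187 and 220 in Nudt7 livers, against 250, 247, 242 and 241 in GFP livers. On that scale all 4 Nudt7 livers lay below all 4 GFP livers, where the median log2 fold change of all genes tested was −0.12. A sum over genes listed with earlier results known is given without a test.

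In Nudt7 replicate 2 none of the 9 markers lay above its own mean over the 8 livers, with deviations from −0.44 log2 units for Clec4g to −0.01 for Pecam1. In the other Nudt7 livers 6, 3 and 4 markers lay above their mean (replicates 1, 3 and 4), and in GFP livers 7, 4, 4 and 7 did. Nudt7 replicate 1 was high in Kdr, by 0.28 log2 units, and low in Lyve1, by −0.62. Nudt7 replicate 3 was high in Clec4g and Dnase1l3, by 0.46 and 0.39, and low in Stab2, by −0.33. With the length trend removed, Stab2 was 0.16 above its mean there and Clec4g −0.03 from it, while Dnase1l3 moved further up, to 0.66.

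**Figure D4:**
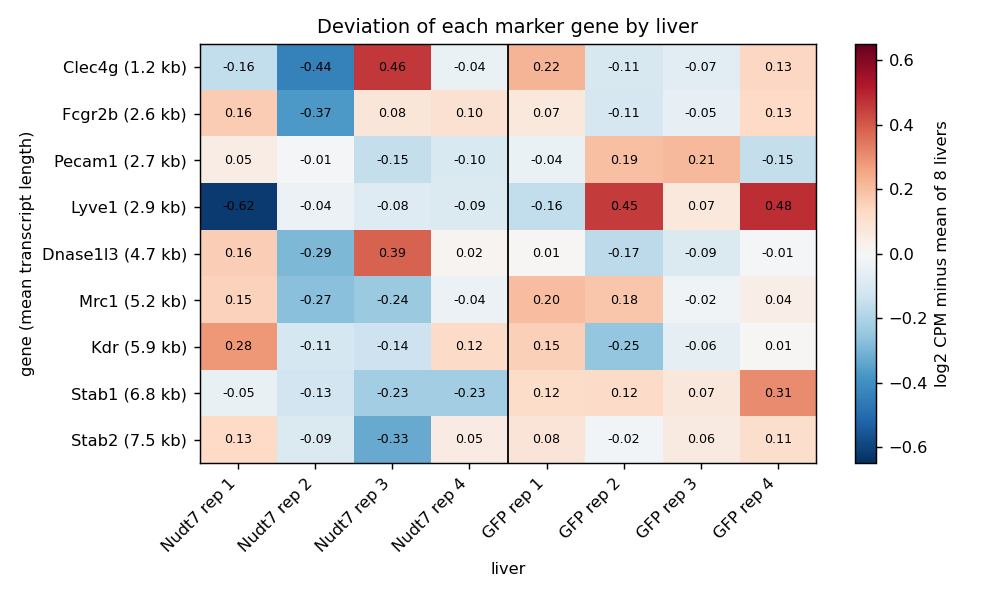
Deviation of each marker gene from its own mean over the 8 livers, in log2 CPM, with Nudt7 livers left of the line and GFP livers right of it, and genes ordered from the shortest mean transcript (Clec4g, top) to the longest (Stab2, bottom). The column of Nudt7 replicate 2 holds no value above 0, and in Nudt7 replicate 3 the values range from 0.46 for Clec4g to −0.33 for Stab2.

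Endothelial genes outside the 9, not limited to vessels other than sinusoids, were set beside the sums of the markers. A list of 31 pan-endothelial genes, among them Cdh5, the junction protein VE-cadherin, summed to 539 to 602 CPM over the Nudt7 livers, against 590.0 to 608 CPM over the GFP livers. Ptprb, of 11534 bases, gave 178 of 567 CPM (Nudt7) and 203 of 600 CPM (GFP) in the means of that sum. The ratio of the 9 markers to that sum was 0.897 ± 0.030 (Nudt7) and 0.935 ± 0.041 (GFP; SD over 4 livers each), with overlapping ranges. Cdh5 averaged 29.8 ± 3.18 CPM (Nudt7) and 30.4 ± 2.13 CPM (GFP; SD over 4 livers each), and its log2 fold change was −0.03 (SE 0.12, edgeR adjusted p = 0.955).

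Across the 36 pairs of markers over the 8 livers, Pearson's r of log2 CPM ran from −0.72 to 0.78 with a median of 0.08. Of the 36 pairs, 23 were positive, or 63.9%, beside 49.9% of all pairs of tested genes. No pair passed an adjusted p of 0.05 in an exact permutation test over all pairings (two-sided, Benjamini-Hochberg over the 36), and 4 had an unadjusted p under 0.05. With values centred on each group's mean the median r was 0.03 and again no pair passed.

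The 3 highest pairs were Clec4g with Dnase1l3, Fcgr2b with Dnase1l3, and Stab2 with Mrc1. Clec4g and Dnase1l3 had r = 0.78 (exact permutation p = 0.0274, adjusted 0.388; rho = 0.57, exact permutation p = 0.151), and −0.01 without the 2 livers farthest from the median of Clec4g. Fcgr2b and Dnase1l3 had r = 0.74 (exact permutation p = 0.0390, adjusted 0.388; rho = 0.76, exact permutation p = 0.0368), and 0.38 without 2 such livers (exact permutation p = 0.435), but 0.60 to 0.94 with any 1 liver left out. Stab2 and Mrc1 had r = 0.73 (exact permutation p = 0.0291, adjusted 0.388; rho = 0.62, exact permutation p = 0.115), and −0.05 without 2 such livers. With any 1 liver left out, r was 0.54 to 0.93 for Clec4g with Dnase1l3 and 0.61 to 0.81 for Stab2 with Mrc1. Leaving out the 2 farthest livers lowered r in all 3 pairs, and it also narrows the range of the first gene. The lowest pair was Lyve1 and Kdr, at r = −0.72 (exact permutation p = 0.0431, adjusted 0.388; rho = −0.67, exact permutation p = 0.0831), and −0.75 without the 2 livers farthest from the median of Lyve1. For Lyve1 and Kdr, r was −0.50 without Nudt7 replicate 1 and −0.03 on the TPM scale. Clec4g and Pecam1 had r = −0.51 (exact permutation p = 0.201) and Pecam1 and Dnase1l3 had r = −0.50 (exact permutation p = 0.209).

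Without Nudt7 replicate 3, a tighter group appeared among the 7 remaining livers. Stab2 and Fcgr2b then had r = 0.96 (exact permutation p = 0.000595, adjusted 0.0143), Fcgr2b and Dnase1l3 had r = 0.94 (exact permutation p = 0.000794, adjusted 0.0143), and Stab2 and Dnase1l3 had r = 0.94 (exact permutation p = 0.00179, adjusted 0.0214). These were the 3 of 36 pairs that passed, and they join the same 3 genes. Kdr and Dnase1l3 came next and did not pass, at r = 0.88 (exact permutation p = 0.00873, adjusted 0.0786), with a rho of 0.93. Over all 8 livers that pair had r = 0.30. In the same 7 livers, 0.124% of all gene pairs reached an r of 0.94 or more. That boundary is the lowest r of the 3 pairs, so the share is a description. Spearman's rho was 0.96, 0.89 and 0.86 for the 3 pairs, and its adjusted exact permutation p was 0.10 or more. The median r of the 36 pairs was 0.30. The pair Stab2 and Dnase1l3 stood at r = −0.37 with Nudt7 replicate 3 included. Of the 7 livers, the 2 farthest from the median of each pair's first gene were also left out. The 3 pairs then had r = 0.81, 0.85 and 0.78 (exact permutation p = 0.075, 0.1 and 0.108).

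Nudt7 replicate 2, the liver with no marker above its own mean, was among those 7. Leaving out both Nudt7 replicates 2 and 3, an alternative chosen after seeing the data, gave r = 0.91 for Stab2 and Fcgr2b, 0.92 for Fcgr2b and Dnase1l3 and 0.89 for Stab2 and Dnase1l3 over 6 livers. The highest pair over these 6 livers was Kdr and Dnase1l3, at r = 0.97. No pair passed then (smallest adjusted exact permutation p = 0.0667), and the median over the 36 pairs was 0.03. With the length trend removed and all 8 livers kept, the median was 0.30 and no pair passed (smallest adjusted exact permutation p = 0.201). Kdr and Dnase1l3 were the highest pair there too, at r = 0.79. Pecam1 and Lyve1 stayed outside the group. Without Nudt7 replicate 3, Pecam1 had r from −0.46 to 0.11 with the other 8 markers, and Lyve1 had r from −0.79 with Kdr to 0.58 with Stab1. Stab1 also stood apart from the 3 genes in those 7 livers, at r = 0.31 with Stab2, 0.23 with Fcgr2b and 0.03 with Dnase1l3.

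**Figure D5:**
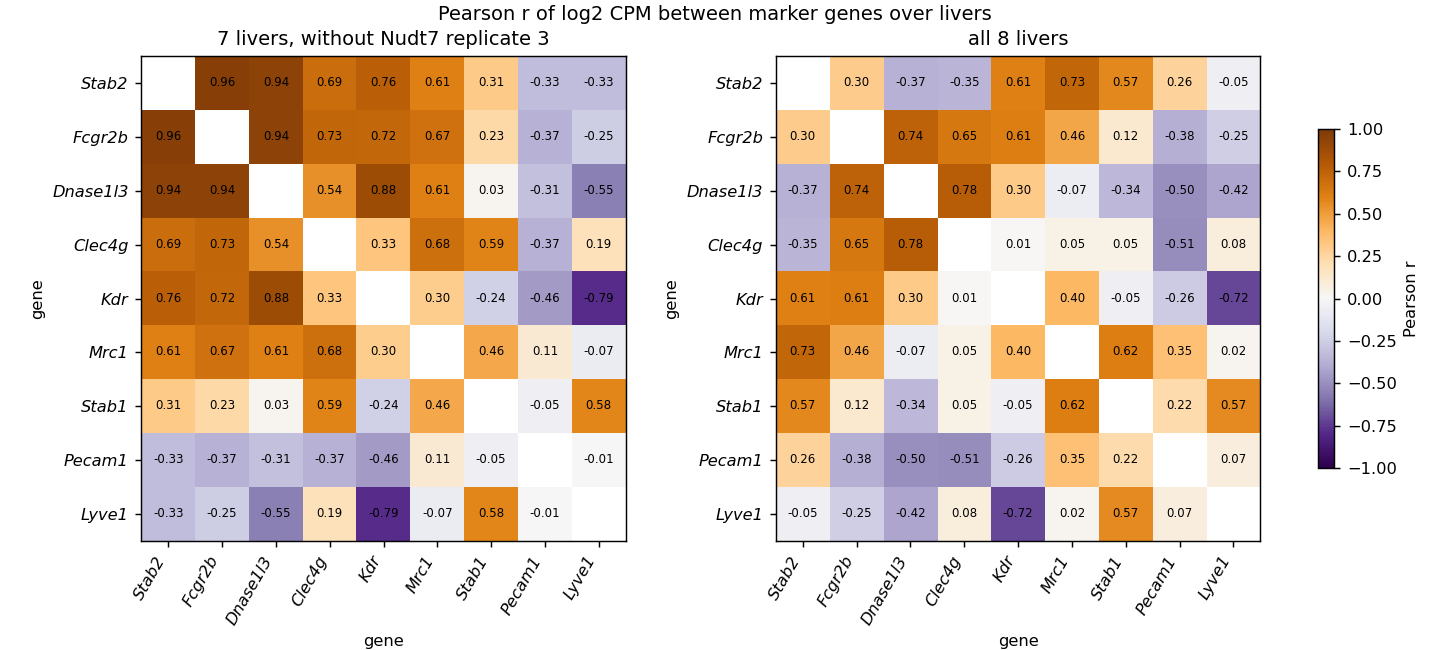
Pearson's r of log2 CPM between each pair of marker genes, over the 7 livers without Nudt7 replicate 3 (left) and over all 8 livers (right); brown is positive and purple negative. Stab2, Fcgr2b and Dnase1l3 stand at 0.94 to 0.96 on the left and at −0.37 to 0.74 on the right, while Lyve1 and Kdr are negative on both sides.

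Promoter sequence was available in the RefSeq table of GRCm38.p6 for 6 of the 9 markers, Stab1, Stab2, Clec4g, Kdr, Fcgr2b and Mrc1. ETS and GATA factors are known regulators of endothelial genes. The ETS core letters AGGAA (on either strand) were in 6 of these 6 windows of 300 bases and in 66.7% of the 32851 windows in the table. The GATA letters AGATAA (on either strand; neither motif contains the other) were in 0 of 6 and in 11.2% of all windows. Mrc1 had 6 matches of AGGAA, Clec4g 4, Stab1 and Stab2 3 each, and Kdr and Fcgr2b 1 each, against a median of 1 over all windows. The upstream bases of Stab2 (chr10:87008026-87008192, minus strand) and Mrc1 (chr2:14229164-14229391, plus strand), the pair with the highest r over 8 livers among markers with an entry, are printed up to the first annotated transcript start, with AGGAA or its reverse complement in capitals.
Stab2 upstream: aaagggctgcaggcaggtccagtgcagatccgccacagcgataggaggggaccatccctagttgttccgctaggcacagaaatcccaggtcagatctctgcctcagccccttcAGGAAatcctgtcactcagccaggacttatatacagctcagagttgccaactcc
Mrc1 upstream: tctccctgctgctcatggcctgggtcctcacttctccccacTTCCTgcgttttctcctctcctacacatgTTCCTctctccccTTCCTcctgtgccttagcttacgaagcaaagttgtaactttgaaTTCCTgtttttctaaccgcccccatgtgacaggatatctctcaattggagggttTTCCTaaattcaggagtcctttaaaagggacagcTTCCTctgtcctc
Of these letters, 1 match lies in the 167 bases shown for Stab2, and 6 lie in the 228 bases shown for Mrc1. A match is only a description of the letters.

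Outside the 9 markers, the genes whose levels over the 8 livers were most like the mean z-score of the 9 were Ints13 (r = 0.95), an Integrator complex subunit, Tle1 (0.95), a transcriptional corepressor, Vgll4 (0.95), a cofactor of TEAD factors, Ttc9c (0.94) and Hcfc2 (0.94). They were picked as the highest of all tested genes, so the values are a description. With the length trend removed, their r was 0.56, 0.84, 0.26, 0.80 and 0.63. Among the 9, Mrc1 followed that mean most closely (0.85), then Fcgr2b (0.77), Stab1 (0.66) and Stab2 (0.64), while Lyve1 (0.08) and Pecam1 (0.06) had r near 0. Each marker is itself part of that mean. Without Nudt7 replicate 3 the order was Stab2 (0.91), Fcgr2b (0.89), Mrc1 (0.86), Clec4g (0.85), Dnase1l3 (0.78), Stab1 (0.59), Kdr (0.46), Lyve1 (−0.01) and Pecam1 (−0.09). Of 53 other genes on the endothelial lists, 39 had a positive r (73.6%), with a median of 0.24, beside 48.6% and a median of −0.01 over all 13678 tested genes, and the highest was Hecw2 at 0.80.

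Further sinusoidal identity and signalling genes, 22 listed and 22 tested, had 18 negative and 4 positive fold changes with a median of −0.13, beside 50.2% negative and a median of −0.00 over all genes, and 0 passed the test in either direction. At an unadjusted p under 0.05, 3 of 22 were lower, beside 4.03% of all genes. Flt4, which encodes VEGF receptor 3, averaged 43.3 ± 5.06 CPM (Nudt7) and 55.3 ± 3.51 CPM (GFP; SD over 4 livers each) without overlap, and its log2 fold change was −0.35 (SE 0.12, edgeR adjusted p = 0.451). Separation with Nudt7 livers lower was found in CPM for 3% of all genes tested. The ubiquitin ligase gene Hecw2 had −0.55 (SE 0.19), the semaphorin receptor gene Plxnc1 −0.36 (SE 0.14) and Wnt9b, an angiocrine ligand for hepatocytes, −0.72 (SE 0.39). The median was −0.10 over all tested genes of at least 5000 bases and 0.02 over shorter ones. Of the Nudt7 libraries, replicate 3 alone was low in the tertile of longest genes, at −0.33, and the other 3 lay at 0.045 to 0.062, within the GFP libraries' −0.018 to 0.094. With the length trend removed the median of the 22 was −0.10 and Flt4 stood at −0.25. Without Nudt7 replicate 3 the median of the 22 was −0.12. The part of transcript length in these values was not tested.

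Of 31 pan-endothelial genes, 15 were negative and 16 positive, with a median of 0.04 and 0 calls. Without Nudt7 replicate 3 their median was −0.02. Flt1, which encodes VEGF receptor 1, had −0.34 (SE 0.15), Nos3, endothelial nitric oxide synthase, −0.41 (SE 0.19), Cd93 −0.34 (SE 0.16) and Clec14a 0.32 (SE 0.17). The groups did not overlap in CPM for Nos3, with Nudt7 livers lower, or for Egfl7, with Nudt7 livers higher. Separation with Nudt7 livers lower was found for 3% of all genes tested. The log2 fold change of Egfl7 was 0.19 (SE 0.11). With the length trend removed it was 0.05, and that of Nos3 was −0.34. Of 12 tested VEGF and angiopoietin ligands and receptors (13 listed), 7 were negative and 5 positive, with 0 calls. The co-receptor gene Nrp1 averaged 50.6 ± 4.25 CPM (Nudt7) and 39.7 ± 3.01 CPM (GFP; SD over 4 livers each) without overlap, and its log2 fold change was 0.35 (SE 0.11, edgeR adjusted p = 0.421). The share of all genes separated with Nudt7 livers higher is not given here. Vegfb, a ligand of Flt1, had 0.54 (SE 0.23). Of 12 tested genes of continuous and large vessels (16 listed), 6 were negative and 6 positive, with 0 calls; Thbd had −0.55 (SE 0.27), Cldn5 0.38 (SE 0.22), Fbln5 0.35 (SE 0.28) and Efnb2 −0.25 (SE 0.23).

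Other cells that share some of the 9 genes were read from their own lists, and their part in the results was not tested. Of 17 Kupffer cell markers, 6 were negative and 11 positive with 0 calls, and their sum was 411, 399, 578 and 290.0 CPM in Nudt7 livers, against 356, 457, 403 and 346 CPM in GFP livers. Their median log2 fold change was 0.18, and 0.01 without Nudt7 replicate 3, the liver with the highest sum. Cd163, a haemoglobin scavenger receptor, had −0.34 (SE 0.16), and Id3 0.69 (SE 0.32), Folr2 0.64 (SE 0.31) and Spic 0.33 (SE 0.23). Of 4 lymphatic endothelial markers, Pdpn and Mmrn1 had too few reads to be tested. Prox1, which hepatocytes also express, had −0.22 (SE 0.22), and Ccl21a, whose symbol stands for more than 1 gene copy, had −0.03 (SE 0.37).

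Of 15 stellate cell markers, 7 were negative and 8 positive, with 0 calls and a median of 0.03; Ngfr had 0.46 (SE 0.27), Lum 0.35 (SE 0.23), Colec11 0.21 (SE 0.15) and Hhip −0.30 (SE 0.22). Of 12 T cell, B cell and neutrophil markers, 4 were tested with 0 calls: Cd3e at 0.53 (SE 0.36), Cd3d at −0.21 (SE 0.25), Ms4a1 at −0.22 (SE 0.39) and Ptprc at 0.06 (SE 0.28). All 5 red blood cell genes were positive with 0 calls and a median of 0.71, against −0.04 without Nudt7 replicate 3; Alas2 had 0.52 (SE 0.24), Hba-a1 0.71 (SE 0.45), Hbb-bs 0.74 (SE 0.52) and Hbb-bt 0.74 (SE 0.50). Of 11 hepatocyte markers, 5 were negative and 6 positive with 0 calls and a median of 0.01. Cps1, of the urea cycle, had −0.45 (SE 0.19), Ahsg −0.43 (SE 0.20), Fgb −0.26 (SE 0.16) and Serpina1c 0.27 (SE 0.16).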

How the data were processed

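Messenger RNA of 8 whole livers was sequenced, per the labels, with a stranded kit from KAPA Biosystems, 500 ng of RNA and 9 cycles of PCR. FastQC, Salmon, DESeq2 and GRCm38 are named in the submitters' processing notes; the version and options of Salmon are unstated there. Per the file headers, the deposited values are estimated counts (reads per transcript, not normalized) and TPM (per effective length, summing to 1e+06 per library).

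Transcripts were named with GENCODE M21; 107987 of 109282 (98.8%) matched, and the others, with 0.552% to 1.06% of the reads of a library, were left out. Estimated counts and TPM were summed per gene, and counts were rounded to whole numbers. Nudt7 and GFP livers, separate mice with animal numbers that pair nothing, were compared with edgeR 4.0.16 in R 4.3.3 (quasi-likelihood test, robust, TMM, filterByExpr, group only, two-sided, Benjamini-Hochberg over 13678 genes, threshold 0.05). The common biological coefficient of variation was 0.196. Alternatives were DESeq2 1.42.0, other size factors, no filter, limma 3.58.1 (voom with sample weights, and log2(TPM + 0.1)), protein-coding transcripts only, a per-library lowess trend in transcript length removed (span 0.3), and each liver left out. Correlations used log2 CPM with a prior count of 0.5 and exact permutation. The procedure was tested on simulated data. PCR copies were counted as reads, so reads are not independent.

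The members, the other gene lists and the tests were chosen with earlier results of these data known. Named outside the 9 were up to 4 tested genes of each list with the smallest unadjusted p, the 5 genes most like the markers' mean z-score, and the 3 highest and 3 lowest pairs. Cdh5, Egfl7, Ptprb and the 3 pairs that passed without Nudt7 replicate 3 were named after their values were seen. So were the pair Kdr and Dnase1l3 and the pairs of Stab1 with the 3 genes of those pairs.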

Additional observations from a re-analysis of the deposited data

Results flagged for a closer look

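In 54 groups of 4 values (each marker in CPM and TPM, and the transcript shares, sums and ratios, by group), 3 held a liver whose gap to the nearest other, divided by the range, was above Dixon's 95% critical value; chance gives about 1 in 20. Lyve1 stood at 32.3 CPM in Nudt7 replicate 1, against 46.7 to 48.6 CPM in the other Nudt7 livers (ratio 0.882). Stab1 stood at 24.2 TPM in Nudt7 replicate 3, against 30.2 to 31.2 TPM in the other Nudt7 livers (ratio 0.857). Stab1 also stood at 41.6 TPM in GFP replicate 4, against 34.2 to 35.4 TPM in the other GFP livers (ratio 0.837). Without Nudt7 replicate 1 the log2 fold change of Lyve1 was −0.29, and without GFP replicate 4 that of Stab1 was −0.25.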

How the results depend on the processing

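No marker passed the adjusted threshold under any of the 15 alternatives to the edgeR test of all 8 livers (smallest adjusted p 0.203, Stab1 with DESeq2), and Stab1, Lyve1, Mrc1 and Pecam1 were negative under all 15. Over all genes, 6 were higher and 10 lower; the counts were 89 and 64 with DESeq2, 57 and 46 with limma-voom and sample weights, and 3 and 5 with limma on log2(TPM + 0.1), while 15 were higher with no filter and 24 with the length trend removed. Leaving out 1 liver gave 1 to 8 higher and 1 to 12 lower. The sign of Fcgr2b turned with DESeq2 (0.0083), with DESeq2's size factors in edgeR (0.0064) and with limma-voom (0.013), and its range with 1 liver left out was −0.045 to 0.10. Stab2 stood at 0.015 with the length trend removed, Kdr at −0.070 and Dnase1l3 at −0.039 on the TPM scale, and Clec4g ran from −0.24 to 0.060 with 1 liver left out. The cause of these turns was not tested.

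The median r of the 36 pairs was 0.42 on the TPM scale and −0.033 to 0.30 with 1 liver left out, −0.033 without Nudt7 replicate 2. The pairs that passed numbered 0 to 3 with 1 liver left out, 3 without Nudt7 replicate 3, and Fcgr2b and Dnase1l3 had r from 0.60 to 0.94. On the TPM scale Pecam1 and Dnase1l3 had r = 0.18 and Lyve1 and Kdr had −0.034. Stab2 and Mrc1 had r = −0.028 without Nudt7 replicates 2 and 3. Over protein-coding transcripts alone, levels in Nudt7 and GFP livers were 12.4 and 16.8 TPM for Stab1, 11.7 and 14.3 for Stab2, 9.37 and 11.4 for Pecam1, 24.4 and 25.1 for Fcgr2b, and 12.3 and 15.3 for Mrc1, and Dnase1l3 stood at 10.7 TPM in GFP livers. No paired analysis was possible because the labels give animal numbers that the groups do not share. The widest 95% interval of a marker was that of Clec4g, −0.45 to 0.33 log2 units.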
